A study of Mus musculus with 10 samples.

Results

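The fibroblast growth factor (FGF) genes examined here are 4 ligands that act on neighbouring cells (Fgf2, Fgf7, Fgf10 and Fgf18), the hormone gene Fgf23, the 4 tyrosine kinase receptors (Fgfr1, Fgfr2, Fgfr3 and Fgfr4) and the coreceptor Klb. They were taken by gene symbol, and all 10 were among the 25229 genes of the count table. Of these, 9 had enough counts to be tested, and Fgf23 did not. Adipose stem and precursor cells (ASPCs) from perigonadal white adipose tissue (gWAT) of WT mice were sorted as CD45-CD31-Pdgfra+ cells from the stromovascular fraction. They grew to confluence without passaging in a medium that contained basic FGF, the protein made from Fgf2, at 10 ng/ml. The cells then received DMSO, the vehicle, or FICZ, a tryptophan photoproduct that binds the aryl hydrocarbon receptor (AHR), at 100 nM, and RNA was collected 6 hr later. Both groups had 5 libraries, and both carry the replicate numbers 1 to 5. Sex and age of the mice are not given in the sources used here. Neither do these sources state if the libraries came from separate animals or cultures. The p-values therefore weigh group differences against the spread between these libraries, which may be technical. All cells had basic FGF in their medium, and no library without it was analysed here.

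FGF ligands bind receptor tyrosine kinases together with heparan sulphate chains on the cell surface, and the receptors pass the signal to the RAS and MAP kinase pathway. FGF2 keeps ASPCs dividing in culture, while FGF7 and FGF10 are made by stromal cells and act mainly on a splice form of FGFR2 found in epithelium. FGF23 differs from these: it is a hormone secreted mainly by osteocytes, it needs the coreceptor α-klotho, and it lowers phosphate reabsorption in the kidney. β-klotho, the product of Klb, is the coreceptor for the hormones FGF19 (FGF15 in mice) and FGF21, with FGFR4 in hepatocytes and FGFR1 in adipocytes.

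Total counts per library ranged from 38328611 in DMSO replicate 1 to 50210111 in DMSO replicate 2. Levels are given as raw counts or as CPM, the count relative to the size of the library, scaled by TMM factors, and levels of different genes are compared only as CPM per kb of exons. A count of 3, taken as the floor of detection in 1 library, was worth between 0.0603 and 0.0787 CPM. This floor covers counting error only. Intervals of fold changes come from edgeR and include the spread between libraries. The test was edgeR's quasi-likelihood test over 14251 genes, with Benjamini-Hochberg adjustment and a threshold of 0.05 for the adjusted p. A second fit, named the replicate block, also took account of the replicate number.

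The cells carried the transcripts of their label. All 10 ASPC markers were detected, led by Pdgfrb at 159 CPM per kb on average over the 10 libraries, with Pdgfra, the gene of the gate, at 135 CPM per kb, and the sum of the 10 lay between 3893 and 5333 CPM. Of the mature adipocyte markers, Lep had 0 counts in every library, and Fabp4 led that list at 13.9 CPM per kb. The gate removed cells with CD45, encoded by Ptprc, and CD31, encoded by Pecam1, whose transcripts were at 0.549 and 1.25 CPM on average. Endothelial, mesothelial and immune markers were led by Tek at 13.8, Wt1 at 10.8 and Cd68 at 5.41 CPM per kb. The other mesothelial markers lay between 0.155 (Msln) and 0.578 CPM per kb (Upk3b). The other endothelial markers lay between 0.0720 (Emcn) and 0.939 (Cdh5), and the other immune markers between 0.00409 (Cd3e) and 3.42 CPM per kb (Lyz2). Hepatocyte markers were also present in every library: all 20 were detected, their sum reached 11503 CPM in DMSO replicate 5, and Alb, the albumin gene, led them at 622 CPM per kb on average, or 464 without DMSO replicate 5. Of 7 genes that mark osteoblasts and osteocytes, Sost, Mepe and Ibsp had 0 counts in all libraries, and Dmp1 led with 0.0943 CPM per kb.

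The response to FICZ was visible in every library. Cyp1a1, a cytochrome P450 gene and AHR target, had 35.2, 26.9, 42.9, 11.6 and 17.2 CPM in DMSO replicates 1 to 5 and 317, 287, 355, 144 and 172 CPM in FICZ replicates 1 to 5. The groups were far apart, and the libraries numbered 4 and 5 were the lowest of both groups. Of 4 AHR target genes, 3 rose (Cyp1a1, log2 fold change 3.25, adjusted p = 0.0189 from edgeR; Ahrr, the AHR repressor, 1.66, adjusted p = 0.00324; Tiparp, an ADP-ribosyltransferase, 0.91, adjusted p = 0.0335), and these were the 3 genes past the threshold among all genes tested. Cyp1b1 had a log2 fold change of 0.62 (adjusted p = 0.147) and was higher with FICZ in 5 of 5 same-numbered pairs. With the replicate block, 8 of all genes and 2 of these 4 were past the threshold, and Tiparp had an adjusted p of 0.0509. DESeq2 placed 4 of 4 past it, with and without the block. In edgeR 1 of the 4 was past it when DMSO replicate 1 or 2 or FICZ replicate 1, 2 or 3 was left out, 4 without DMSO replicate 5, and 0 without both libraries numbered 5. The study named these genes from the same libraries, so their direction is not independent evidence.

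Transcripts of the FGF genes spanned a wide range of levels. Fgfr1 was the highest at 54.2 CPM per kb on average over the 10 libraries, and Fgf7 followed at 37.97 CPM per kb. Fgf2, Fgf10 and Fgf18 lay together at 6.98, 5.54 and 5.24 CPM per kb, and Fgfr2 came next at 2.73 CPM per kb. The remaining receptors and the coreceptor were scarce, with Fgfr3 at 0.429, Fgfr4 at 0.308 and Klb at 0.159 CPM per kb. Fgf23 had 0.154 CPM per kb over all libraries, which pools 0.0214 with DMSO, the lowest mean of the 10 genes, and 0.286 with FICZ, where it ranked above Fgfr4 at 0.216 and Klb at 0.124. Only between Fgf7 and Fgf2 (means 5.44-fold apart) and between Fgfr2 and Fgfr3 (6.37-fold apart) did neighbours in this order have levels that did not overlap over the 10 libraries. Fgfr1 was above Fgf7 in 9 of 10 libraries, the exception being FICZ replicate 2 at 47.6 against 49.3 CPM per kb, and Fgf10 was above Fgf18 in 6 of 10.

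**Figure D1:**
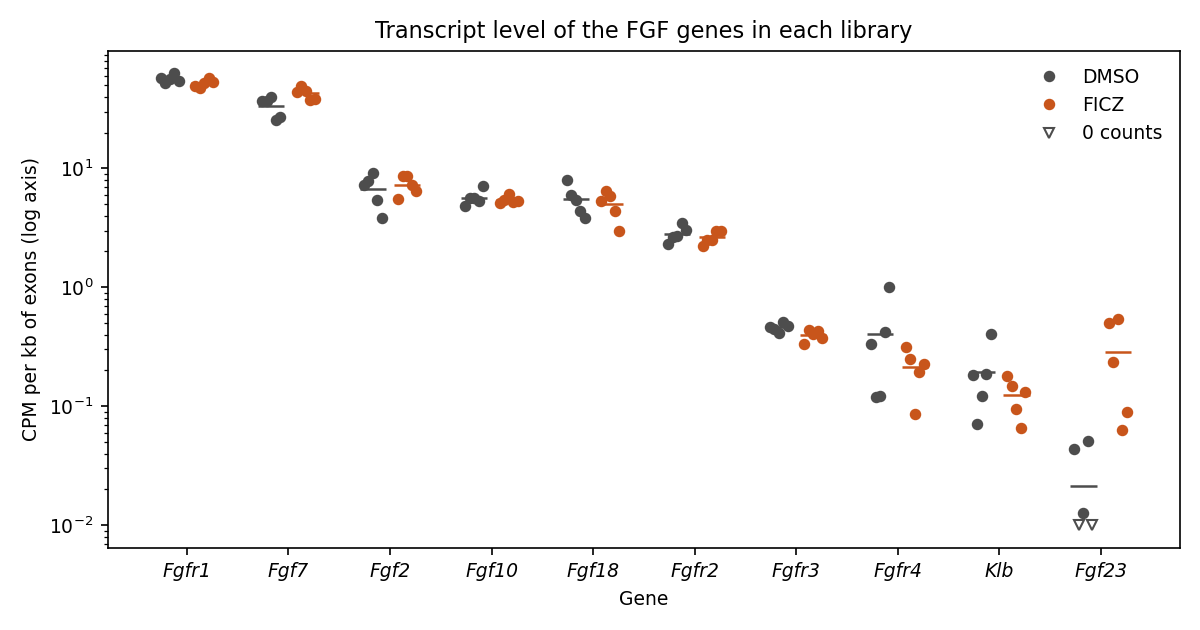
Level of each of the 10 FGF genes in CPM per kb of exons on a log axis, with 1 point per library, DMSO in grey and FICZ in orange, and a bar at the mean of each group of 5 libraries. Open triangles mark libraries with 0 counts, drawn at the bottom of the axis. Fgfr1 and Fgf7 stand at the top, and Fgf23 is the only gene whose groups do not overlap.

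Of the 9 members tested, 0 were past the threshold in edgeR without or with the replicate block, where 0.0211% and 0.0561% of all genes tested were past it. Limma-voom also gave 0 of the 9, with 0.0211% of all genes past it. With other filters Fgf23 entered the fit as well: of the 10 members edgeR without a filter on low counts then gave 0 (0.0104% of all genes) and DESeq2 gave 1, Fgf23, without and with the block (0.0845% and 0.14% of the genes with an adjusted p). Since the study had picked Fgf23 from these libraries, nothing is read from that call. The median log2 fold change of the 9 in edgeR was -0.12, with 2 means above and 7 below 0, beside a median of 0.011 over all genes tested. At an unadjusted p no higher than 0.05 there was 1 member higher with FICZ and 0 lower, without as well as with the block. The corresponding shares of all genes were 1.33% and 3.49% without the block and 2.48% and 2.17% with it. None of the 9 had groups that did not overlap in CPM, which held for 0.351% of all genes upward and 0.119% downward. Following the replicate numbers, 1 member was higher with FICZ in all 5 pairs (Fgf7; 4.32% of all genes) and 3 were lower in all 5 (Fgfr1, Fgfr2 and Fgfr3; 2.81% of all genes).

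Fgf7, the gene for keratinocyte growth factor, was the most abundant ligand of the set. It had 119, 120.3, 130.3, 82.6 and 87.7 CPM in DMSO replicates 1 to 5 and 143, 160.2, 144, 121 and 125 CPM in FICZ replicates 1 to 5. The libraries numbered 4 and 5 were the lowest of their groups, and the groups overlapped because DMSO replicate 3 lay above FICZ replicates 4 and 5. Within each pair of the same number FICZ was higher, with log2 differences between 0.15 and 0.55. The means were 108 ± 21.3 CPM with DMSO and 139 ± 16.0 with FICZ (SD, n = 5). The log2 fold change was 0.36 with a standard error of 0.14 and a 95% interval from 0.063 to 0.66 (edgeR adjusted p = 0.999, unadjusted p = 0.0219). With the replicate block it was 0.38 with a standard error of 0.077 and an interval from 0.20 to 0.56 (edgeR adjusted p = 0.587, unadjusted p = 0.00161). Without the block, the unadjusted p was above 0.05 when DMSO replicate 4 (0.0528), FICZ replicate 2 (0.0591) or both libraries numbered 5 (0.0535) were left out, so the count of 1 member at that level fell to 0 there. Fgf7 lies on the plus strand of chromosome 2, from 126034658 to 126091185 of GRCm38, and its exons overlap no other annotated gene.

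**Figure D2:**
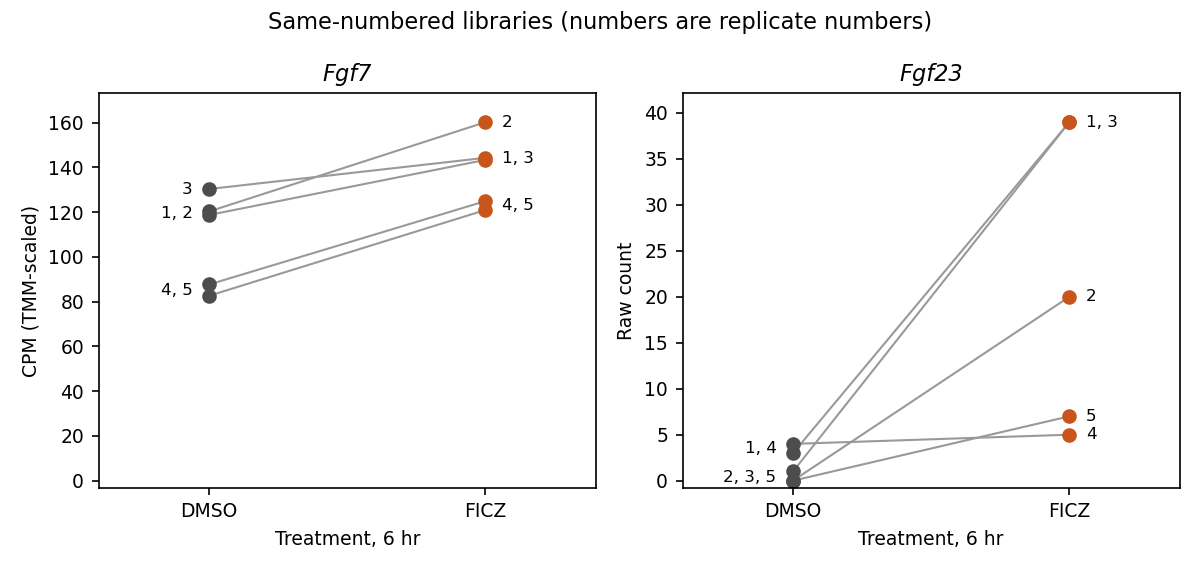
Fgf7 in TMM-scaled CPM (left) and Fgf23 in raw counts (right) in DMSO and FICZ libraries, with a line between libraries of the same replicate number and the numbers beside the points. Fgf7 was higher with FICZ in 5 of 5 pairs although its groups overlapped, and Fgf23 had at most 4 counts in DMSO and between 5 and 39 in FICZ.

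Fgf2, whose protein was also an ingredient of the medium in both groups, was measured as transcript in every library. It had 48.8, 53.3, 61.8, 36.9 and 25.9 CPM in DMSO replicates 1 to 5 and 37.5, 58.9, 57.9, 48.8 and 43.3 CPM in FICZ replicates 1 to 5. DMSO replicate 5 was the lowest of all 10 and DMSO replicate 3 the highest, so the FICZ values fell inside the DMSO range. FICZ was higher in 3 of 5 pairs, and the log2 fold change was 0.12 (standard error 0.21, 95% interval -0.35 to 0.59, edgeR adjusted p = 0.999). Without DMSO replicate 5 its sign turned, at -0.026. Fgf2 lies on the plus strand of chromosome 3 (37348346 to 37410108 of GRCm38), and 640 bases of its exons are overlapped by Nudt6 on the opposite strand and 255 by the transcript Gm43439 on the same strand. Use of strand in the counting is not given in the sources used here, so reads from Fgf2 and Nudt6 cannot be told apart there, and those shared with Gm43439 could not be told apart by strand. Nudt6 had 3.00 ± 0.566 CPM with DMSO and 3.14 ± 0.503 with FICZ (SD, n = 5).

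Fgf10, a ligand made by preadipocytes and other mesenchymal cells, varied little. It had 21.98, 26.1, 25.7, 24.2 and 32.8 CPM in DMSO replicates 1 to 5 and 23.6, 24.7, 27.9, 23.8 and 24.3 CPM in FICZ replicates 1 to 5. DMSO replicate 5 stood above the rest, and the other 9 libraries lay close together. The log2 fold change was -0.073 with a 95% interval from -0.31 to 0.16 (edgeR adjusted p = 0.999), and without DMSO replicate 5 it was 0.021. Fgf18, a ligand known from cartilage and bone growth, had 9.47, 7.09, 6.44, 5.16 and 4.52 CPM in DMSO replicates 1 to 5 and 6.28, 7.59, 6.89, 5.18 and 3.56 CPM in FICZ replicates 1 to 5. Replicate 5 was the lowest of both groups, replicate 4 the next lowest, and the groups overlapped over most of their range. Its log2 fold change was -0.15 (95% interval -0.66 to 0.37, edgeR adjusted p = 0.999), and it was 0.0087 without DMSO replicate 1.

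Fgf23 was near the limit of detection without FICZ. Its raw counts were 3, 0, 1, 4 and 0 in DMSO replicates 1 to 5 and 39, 20, 39, 5 and 7 in FICZ replicates 1 to 5. Every FICZ library was above every DMSO library, but the FICZ libraries fell into 3 with 20 counts or more (replicates 1, 2 and 3) and 2 with at most 7 (replicates 4 and 5), and FICZ replicate 4 was above its DMSO partner by a single count. In CPM the means were 0.0387 ± 0.0439 in DMSO and 0.520 ± 0.410 in FICZ (SD, n = 5). Summed over libraries there were 8 counts with DMSO and 110 with FICZ, a ratio of 14.2 after scaling for depth, with a 95% exact interval from 6.97 to 33.8 that covers counting error only. Without DMSO replicate 4, which held 4 of the 8 DMSO counts, the ratio was 22.9 (interval 8.71 to 85.7). In the pairs whose DMSO library had 0 counts, FICZ was 7.04-fold (replicate 2) and 2.63-fold (replicate 5) above a floor of 3 counts, scaled for depth. These ratios leave out the counting error of the FICZ counts. The study selected Fgf23 from these same libraries, so these values are a description and no p-value is given.

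The low values of FICZ replicates 4 and 5 had counterparts in some other genes. Cyp1a1 was lowest in the libraries numbered 4 and 5 of both groups, as was Fgf7. Fgfbp1, a secreted carrier protein that releases FGFs from the matrix, had 47, 22, 45, 3 and 5 counts in DMSO replicates 1 to 5 and 64, 38, 74, 9 and 8 counts in FICZ replicates 1 to 5. Its libraries numbered 4 and 5 stood far below the others with either treatment, and within pairs FICZ was higher in 5 of 5. The other AHR targets did not share the full pattern of Cyp1a1. Ahrr was lowest in replicate 4 of both groups, at 6.24 and 27.4 CPM, and DMSO replicate 5 came next in its group at 10.6 CPM, but FICZ replicate 5 was the highest of all 10 libraries at 34.6 CPM. Cyp1b1, at 1509.9 and 1547 CPM in FICZ replicates 4 and 5, was above its 1409 and 1480.1 CPM in FICZ replicates 1 and 3. Tiparp was lowest in DMSO replicate 4 and in FICZ replicates 4 and 5, at 40.8, 69.4 and 69.1 CPM, but DMSO replicate 5, at 48.1 CPM, was among the higher libraries of its group. In Fgf23 itself DMSO replicate 4 had the most counts of its group, at 4. Of the members, Fgf18 was also lowest in the libraries numbered 4 and 5 of both groups, but Fgfr2 was highest in them. Fgfr1 was highest of the FICZ group in replicates 4 and 5, at 563 and 529 CPM. The part of these library differences in the values of Fgf23 was not tested.

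Fgf23 lies on the plus strand of chromosome 6, from 127072902 to 127081408 of GRCm38, with 1814 bases of exons that overlap no other gene and share no 50-base word with transcripts of other genes. Its nearest neighbour Tigar, on the opposite strand 3708 bases away, had 11.1 ± 2.61 CPM with DMSO and 13.04 ± 2.68 with FICZ (SD, n = 5; log2 fold change 0.23, edgeR adjusted p = 0.999). Fgf6, another FGF ligand gene nearby on this chromosome, had 0 counts in all 10 libraries. α-klotho, the coreceptor of FGF23 encoded by Kl, had between 0 and 5 counts per library, so its transcript was at the floor of detection in these cells.

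The bases before the start of Fgf23 and of Fgf7 are shown because these were the 2 members higher with FICZ in 5 of 5 pairs, and because FICZ acts through AHR. The core of the AHR response element was searched as GCGTG and as its reverse complement CACGC. Of 32851 RefSeq promoter windows of 300 bases (250 before the start and 50 after it, GRCm38.p6), 32.4% held it on either strand, and 28.2% held it in the 250 bases before the start. Windows were found for 9 of the 10 members, with none for Fgfr1, and the motif was in the window of 6 of these 9 genes (Fgf2, Fgf7, Fgf23, Fgfr3, Fgfr4 and Klb). The windows of the treatment check genes Cyp1a1, Cyp1b1, Ahrr and Tiparp held 1, 1, 3 and 1 copies. Of the members not shown, Fgfr3 held 5 copies in 1 window and 1 in another, Fgfr4 held 2, and Klb and Fgf2 held 1 each. Fgfr3, Fgfr4 and Klb had lower means with FICZ. The upstream windows of Fgf23 (chr6:127072652-127072901, plus strand) and Fgf7 (chr2:126034408-126034657, plus strand), from RefSeq, read 5′ to 3′ with the motif in capitals:
Fgf23: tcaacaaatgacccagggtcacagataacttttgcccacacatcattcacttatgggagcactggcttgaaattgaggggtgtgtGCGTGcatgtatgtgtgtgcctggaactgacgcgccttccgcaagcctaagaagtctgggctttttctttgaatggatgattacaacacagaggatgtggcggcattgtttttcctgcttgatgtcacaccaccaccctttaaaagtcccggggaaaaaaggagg
Fgf7: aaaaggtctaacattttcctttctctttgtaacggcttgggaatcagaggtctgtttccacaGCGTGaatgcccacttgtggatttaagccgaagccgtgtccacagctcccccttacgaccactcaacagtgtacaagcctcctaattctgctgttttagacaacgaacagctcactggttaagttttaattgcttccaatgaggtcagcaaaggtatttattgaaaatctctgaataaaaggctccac
In Fgf23 the motif stood 165 to 161 bases before the start and in Fgf7 188 to 184 bases before it, both on the plus strand. Fgf7 held 2 further copies on the minus strand that reach or lie past the start. A match is a description of these letters only. Binding of AHR at these places, and its part in the values of Fgf23 and Fgf7, were not tested.

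Fgfr1, the main FGF receptor of mesenchymal cells, was by far the most abundant receptor. It had 569, 512, 553, 621 and 532 CPM in DMSO replicates 1 to 5 and 484, 470.5, 519, 563 and 529 CPM in FICZ replicates 1 to 5. The groups overlapped, with FICZ lower in each same-numbered pair, with log2 differences from -0.23 to -0.0093. The means were 557 ± 41.3 CPM with DMSO and 513 ± 36.9 with FICZ (SD, n = 5), and the log2 fold change was -0.12 (standard error 0.082, 95% interval -0.30 to 0.060, edgeR adjusted p = 0.999). Fewer cells that carry a transcript and less of it per cell cannot be told apart in bulk samples such as these.

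Fgfr2 had 23.9, 27.5, 27.8, 35.9 and 31.1 CPM in DMSO replicates 1 to 5 and 23.0, 25.8, 25.9, 30.5 and 30.9 CPM in FICZ replicates 1 to 5. Replicate 1 was the lowest of both groups and replicates 4 and 5 the highest. Its log2 fold change was -0.10 (95% interval -0.37 to 0.16, edgeR adjusted p = 0.999), and it was -0.018 without DMSO replicate 4. Fgfr3, a receptor best known as a brake on cartilage growth, had 126, 160, 129, 160 and 164 counts in DMSO replicates 1 to 5 and 102, 149, 114, 133 and 117 in FICZ replicates 1 to 5. FICZ was lower in all pairs and the groups overlapped, with a log2 fold change of -0.22 (95% interval -0.52 to 0.079, edgeR adjusted p = 0.999). Of its exons, 998 bases are overlapped by the unclassified transcript G630022F23Rik on the opposite strand, and 314 bases of Fgfr2 exons by Ctbp2 on the same strand, so counts of both receptors are uncertain to that extent. Antisense transcripts overlap 164 bases of Fgfr1 exons and 123 bases of Fgf10 exons.

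Fgfr4 and Klb were the receptor genes with the widest spread. Fgfr4 had 45, 21, 19, 65 and 174 counts in DMSO replicates 1 to 5 and 48, 42, 12, 30 and 35 in FICZ replicates 1 to 5. Klb had 32, 16, 24, 37 and 89 counts in DMSO replicates 1 to 5 and 35, 32, 17, 13 and 26 in FICZ replicates 1 to 5. In both genes DMSO replicate 5 was more than 2 times as high as any other library, and the remaining DMSO and FICZ libraries overlapped. The log2 fold change was -0.89 for Fgfr4 (standard error 0.56, 95% interval -2.13 to 0.34) and -0.63 for Klb (standard error 0.44, 95% interval -1.59 to 0.32), each with an edgeR adjusted p of 0.999. Without DMSO replicate 5 these were -0.20 (95% interval -1.17 to 0.78) and -0.16 (95% interval -0.96 to 0.63).

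Hepatocyte transcripts had their own maximum in the same library. The 20 hepatocyte markers summed to 4769, 1934, 2180, 4622 and 11503 CPM in DMSO replicates 1 to 5. In FICZ replicates 1 to 5 the sums were 2741, 2403, 2803, 2050 and 2563 CPM. All 20 had a mean below that of DMSO in the FICZ libraries, beside 6585 of the 14251 genes tested, and 0 of the 20 were past the threshold. The lowest sum of all libraries was that of DMSO replicate 2. None of the 20 was at 0, and Alb, the most abundant, had 232987 counts in DMSO replicate 5 and at least 29599 in each other library. DMSO replicates 5, 1 and 4 were the 3 highest libraries for the marker sum and for both Fgfr4 and Klb. Fgf21, a hormone gene of the liver whose receptor complex contains β-klotho, had 2, 1, 3, 9 and 20 counts in DMSO replicates 1 to 5 and 1, 3, 7, 0 and 2 in FICZ replicates 1 to 5, again with its maximum in DMSO replicate 5. The summed ASPC, endothelial, mesothelial and immune markers were also highest in that library, and the mature adipocyte markers lowest. Clec4g and Stab2 of the endothelial list and Clec4f of the immune list peaked there too, at 3.55, 5.50 and 7.78 CPM. Their means over the other libraries were 0.905, 1.31 and 1.73 CPM. The part of liver transcripts in the sums of these lists and in the values of Fgfr4, Klb and Fgf21 was not tested.

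**Figure D3:**
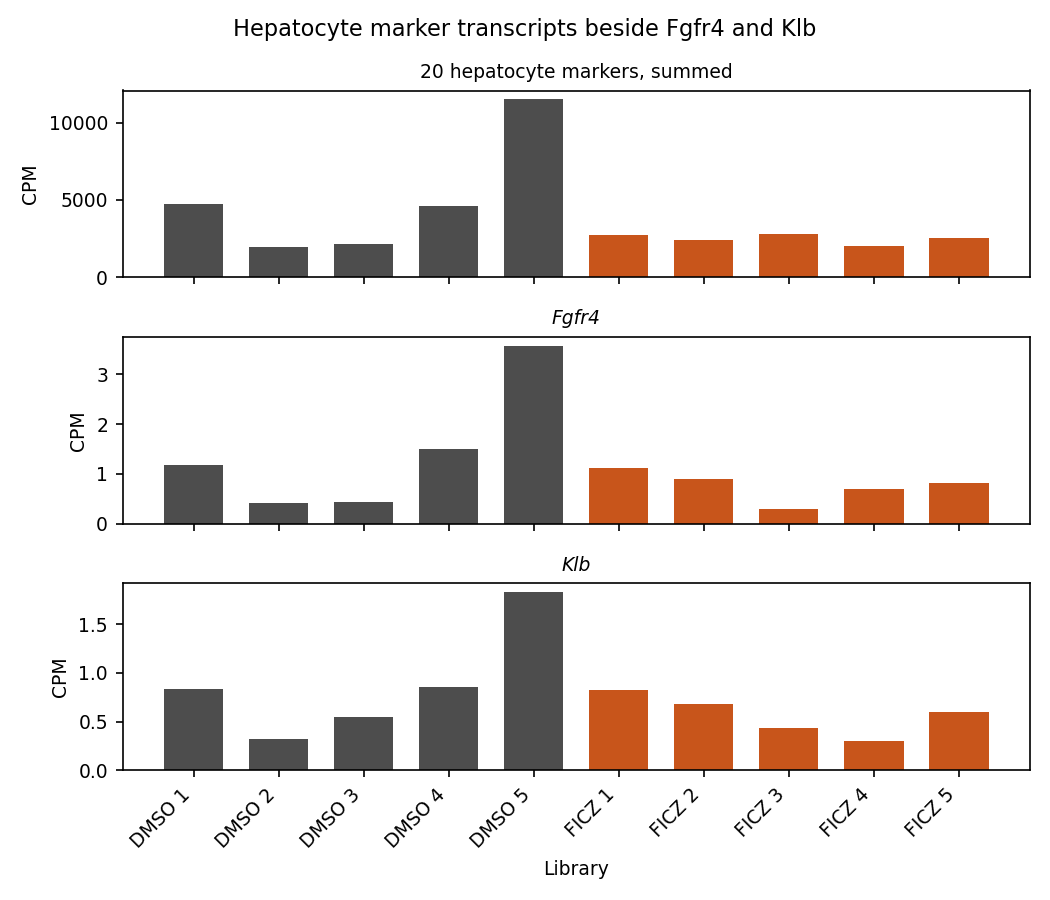
Summed CPM of 20 hepatocyte markers (top) and CPM of Fgfr4 (middle) and Klb (bottom) in each of the 10 libraries, DMSO in grey and FICZ in orange. DMSO replicate 5 is the highest library in all 3 panels, with 11503 CPM of hepatocyte markers, 3.57 CPM of Fgfr4 and 1.83 CPM of Klb.

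**Figure D4:**
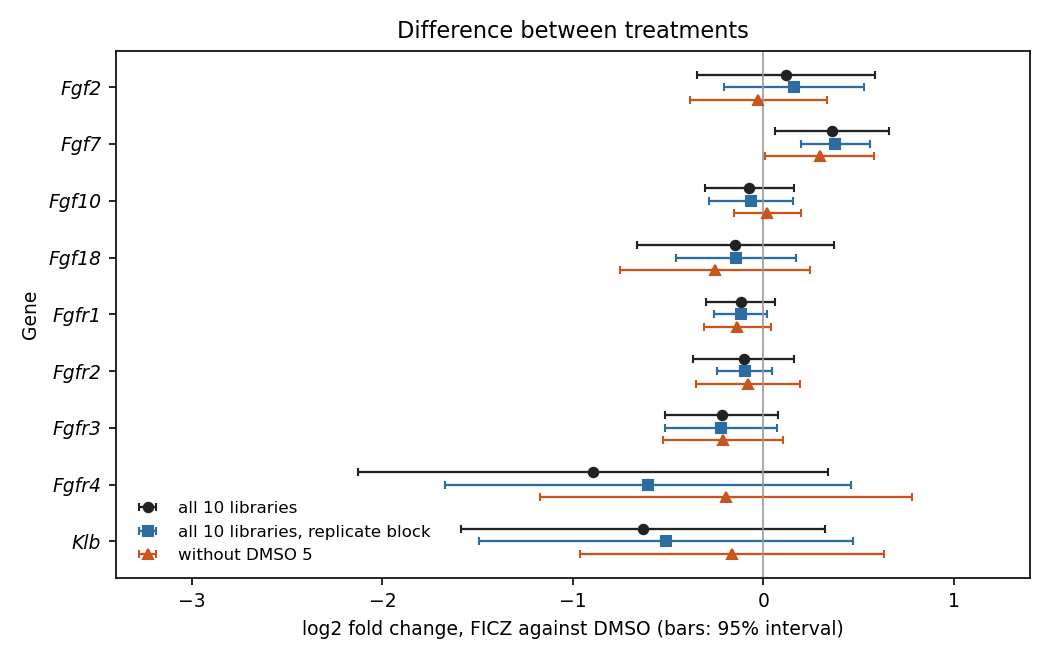
Log2 fold change of FICZ against DMSO for the 9 members tested by edgeR, with 95% intervals, for all 10 libraries without (circles) and with (squares) the replicate block and without DMSO replicate 5 (triangles). In these 3 fits the intervals of Fgf7 lie above 0, which does not hold when some other libraries are left out, and Fgfr4 and Klb move towards 0 when DMSO replicate 5 is left out.

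Most other genes of the FGF family were scarce. Of 17 outside the set, among them genes for intracellular proteins, 14 did not pass the filter on low counts, and 5 of these (Fgf3, Fgf4, Fgf6, Fgf8 and Fgf15) had 0 counts in every library. Fgf1, whose protein binds every FGF receptor, was the highest at 9.001 CPM per kb, with 51.3 ± 8.98 CPM with DMSO and 47.0 ± 7.92 with FICZ (SD, n = 5; log2 fold change -0.13, edgeR adjusted p = 0.999). Fgf11, an intracellular member of the family, had 0.756 CPM per kb and between 62 and 140.0 counts per library, and Fgf9, another secreted ligand, had 0.0736 CPM per kb. Of the 3 tested, 0 were past the threshold in edgeR, with 0 at an unadjusted p no higher than 0.05, and DESeq2 and limma-voom gave 0 as well. Their median log2 fold change was -0.13.

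Among other proteins that act at the receptor, Fgfrl1, a receptor without a kinase domain, was well detected at 8.84 CPM per kb, with 23.8 ± 3.09 CPM with DMSO and 25.4 ± 2.73 with FICZ (SD, n = 5). Fgfbp3, a carrier of FGFs, had 3.83 ± 0.605 and 4.59 ± 0.431 CPM (SD, n = 5; log2 fold change 0.26, edgeR adjusted p = 0.999). Fgfbp1 had a log2 fold change of 0.68 (standard error 0.80, edgeR adjusted p = 0.999), and with the replicate block its unadjusted p was 0.0143 (adjusted p = 0.929). Of the 3 tested of 5, 0 were past the threshold in edgeR, DESeq2 or limma-voom, all 3 had a higher mean with FICZ, and 0 had an unadjusted p no higher than 0.05 without the block.

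Heparan sulphate helps FGFs bind their receptors. Of 17 genes for enzymes that build, sulphate or, as Sulf1 and Sulf2 do, remove sulphate from these chains, 14 were tested. Ndst1, Extl3 and Ext1, which sulphate and elongate the chain, were the most abundant at 27.7, 26.2 and 25.2 CPM per kb. Of the 14, 0 were past the threshold in edgeR, DESeq2 or limma-voom, and 2 were lower at an unadjusted p no higher than 0.05 (Hs3st1 and Hs3st3b1; 3.49% of all genes), of which 1 stayed with the replicate block (Hs3st1; 2.17% of all genes). Both are 3-O-sulphotransferases of low level. The other one in the list, Hs3st3a1, was under the filter, with means of 0.157 CPM with DMSO and 0.184 with FICZ. Hs3st1 had 110, 108, 79, 178 and 144 counts in DMSO replicates 1 to 5 and 71, 70, 56, 95 and 97 in FICZ replicates 1 to 5, with FICZ lower in each pair and groups that overlapped. In the other direction Sulf1, at 24.9 CPM per kb, was higher with FICZ in each pair (log2 fold change 0.16, edgeR adjusted p = 0.999, unadjusted p = 0.0610). The log2 fold change of Hs3st1 was -0.63 (standard error 0.24, edgeR adjusted p = 0.999, unadjusted p = 0.0233), and with the replicate block the adjusted p was 0.730. Hs3st3b1 had 1.97 ± 0.983 CPM with DMSO and 1.03 ± 0.389 with FICZ (SD, n = 5; log2 fold change -0.93, edgeR adjusted p = 0.999, unadjusted p = 0.0206). DMSO replicate 5, at 3.59 CPM, was its highest library, above 2.12 CPM in DMSO replicate 4. Without DMSO replicate 5, a fit added after the data were seen, the log2 fold change was -0.60 (unadjusted p = 0.0620), and with the replicate block the unadjusted p was 0.0606. For Hs3st1 and Hs3st3b1 alike, DMSO replicates 1, 4 and 5 were the 3 highest libraries, as they were for the sum of the hepatocyte markers. The part of liver transcripts in their values was not tested. The median of the 14 was -0.028.

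The genes that carry the signal from the receptor into the cell were all expressed. Of 20 signal transducers, 20 were tested and 0 were past the threshold in edgeR, DESeq2 or limma-voom, with 0 at an unadjusted p no higher than 0.05 and a median log2 fold change of 0.016. The most abundant were Mapk3, which encodes the kinase ERK1, at 67.0 CPM per kb, the adaptor Shc1 at 49.5 and the phosphatase Ptpn11 at 34.0. Mapk3 had 159 ± 25.2 CPM with DMSO and 144 ± 13.1 with FICZ (SD, n = 5).

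Genes that FGF signalling switches on, among them its own feedback inhibitors, also gave no call. Of 21 tested, 0 were past the threshold in edgeR, DESeq2 or limma-voom, 0 had an unadjusted p no higher than 0.05, and the median log2 fold change was -0.0087, with 9 means above and 12 below 0. Dusp4, a phosphatase that removes phosphate from MAP kinases, was the most abundant at 86.3 CPM per kb, followed by Ccnd1, which encodes cyclin D1, at 35.4 and the AP-1 gene Fosl1 at 32.0. Dusp4 had 243 ± 84.8 CPM with DMSO and 229.7 ± 66.6 with FICZ (SD, n = 5), with a standard error of 0.26 on the log2 fold change of -0.084. Spry2, an inhibitor of FGF receptor signalling, had 47.1 ± 7.97 CPM with DMSO and 43.2 ± 7.79 with FICZ (SD, n = 5; log2 fold change -0.13, edgeR adjusted p = 0.999). Flrt1, a membrane protein that binds FGF receptors, was scarce at 0.0372 CPM per kb.

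Of the genes that process FGF23 or handle phosphate, 7 of 10 were tested and 0 were past the threshold in edgeR, DESeq2 or limma-voom, with 0 at an unadjusted p no higher than 0.05 and a median log2 fold change of -0.017. The controls of FGF23 cleavage were unevenly represented. Furin, a protease that cuts FGF23, had 22.6 CPM per kb and Fam20c, the kinase that primes it for cleavage, 12.95, while Galnt3, whose glycosylation protects it, had between 0 and 9 counts per library and was not tested. Slc20a2 and Slc20a1, which encode phosphate importers, had 26.8 and 17.6 CPM per kb. Slc20a1 had 98.8, 85.3, 114, 73.5 and 70.9 CPM in DMSO replicates 1 to 5 and 110.3, 113, 153, 81.7 and 80.8 CPM in FICZ replicates 1 to 5. FICZ was higher within each pair, the libraries numbered 4 and 5 were the lowest of both groups, and the groups overlapped. Its log2 fold change was 0.28 (standard error 0.19, edgeR adjusted p = 0.999, unadjusted p = 0.162), and with the replicate block the unadjusted p was 0.00597 and the adjusted p 0.800.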

How the data were processed

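RNA from cultured ASPCs was sequenced. The authors deposited unnormalized counts for each gene, named by symbol. Reads were aligned with STAR 2.7.7 to mm10 according to the submitters' processing notes. The counting program, annotation, and treatment of strand and of reads with several alignments are not given in the sources used here. Total counts per library ran from 38328611 to 50210111.

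Counts were tested with edgeR 4.0.16 in R 4.3.3 (TMM, robust quasi-likelihood test, filter by expression), with Benjamini-Hochberg adjustment over the 14251 genes kept. Log2 CPM used a prior count of 2. Exon lengths, positions and overlaps came from GENCODE for GRCm38, in which 96.5% of symbols were found. The fits were tested on simulated counts with 200 changed genes. All 20 pairs of libraries within a group differed by more than sampling noise (chi-square per degree of freedom from 16.4 to 285).

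Replicate numbers come from the labels. Deviations from the group mean correlated between same-numbered libraries at 0.154 to 0.317 in all 5 pairs, so the numbers were taken to pair the libraries and a fit with the replicate block was made. DMSO replicates 1, 2 and 5 correlated best with the FICZ library of their own number, DMSO replicate 3 with FICZ 2 and DMSO replicate 4 with FICZ 5. Other alternatives were other normalizations and filters, limma-voom (limma 3.58.1), DESeq2 1.42.0 and leaving out each library.

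The genes named were all 10 members and, in each other list, every gene past the threshold, the 3 with the highest mean CPM per kb and the 2 with the smallest unadjusted p. Of marker lists, the gene with the highest CPM per kb and every gene at 0 counts were named. Genes named after their values were seen were Nudt6, Tigar, Fgf21, Kl, Galnt3, Sulf1, Sulf2, Hs3st3a1, Pdgfra, Ptprc, Pecam1 and the ligand genes at 0 counts. So were Msln, Upk3b, Emcn, Cdh5, Cd3e, Lyz2, Clec4f, Clec4g and Stab2. Members and lists were chosen with earlier results of these data known. A gene that this rule names is not reported here. Spry3 and Ankh were not analysed here.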

Additional observations from a re-analysis of the deposited data

Results flagged for a closer look

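In 2 of 76 groups of 5 libraries, over the 38 named FGF, pathway and AHR target genes, 1 library lay far from the other 4. The measure was its distance to the nearest other library divided by the range of the group, and chance marks about 1 in 20 groups in this way, here 3.8. Fgf10 in FICZ replicate 3 was at 27.9 CPM, above the other FICZ libraries at 23.6 to 24.7 CPM, with a share of 0.739. Ahrr in DMSO replicate 4 was at 6.24 CPM, below the other DMSO libraries at 10.6 to 11.6 CPM, with a share of 0.817.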

How the results depend on the processing

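Under 21 alternatives, 183 of 187 log2 fold changes of the 9 tested members kept their direction and stayed short of the threshold, and 4 reversed. Without DMSO replicate 5, Fgf2 was at -0.026 and Fgf10 at 0.021, without both libraries numbered 5 Fgf10 was at 0.022, and without DMSO replicate 1 Fgf18 was at 0.0087. All 4 lay within a standard error of 0, and fewer libraries entered each fit. Leaving out 1 library gave 0.28 to 0.44 for Fgf7, -0.026 to 0.26 for Fgf2, -0.15 to 0.021 for Fgf10, -0.25 to 0.0087 for Fgf18, -0.15 to -0.078 for Fgfr1, -0.18 to -0.018 for Fgfr2, -0.26 to -0.16 for Fgfr3, -1.13 to -0.20 for Fgfr4 and -0.85 to -0.16 for Klb. The adjusted p of Fgf7 lay between 0.0770 and 1.00 over these alternatives. Its unadjusted p of 0.0219 went past 0.05 without DMSO replicate 4 (0.0528), FICZ replicate 2 (0.0591) or both libraries numbered 5 (0.0535). Of members, 1 (Fgf23) was past the threshold in DESeq2 without and with the replicate block, and 0 in the other alternatives. Over all genes the count of 3 became 16 in DESeq2, 8 with the replicate block and 26 in DESeq2 with the replicate block, 1 to 4 when 1 library was left out (1 without DMSO replicate 1 or 2 or FICZ replicate 1, 2 or 3), and 0 without both libraries numbered 5. Of the 4 AHR target genes, 1 to 4 were past the threshold when 1 library was left out (1 without the same 5 libraries, each in turn), 0 without both libraries numbered 5, and 4 in DESeq2 without and with the block. The cause was not tested. The replicate block (paired fit) changed no call of a member, with a log2 fold change of -0.61 for Fgfr4 and -0.51 for Klb. The log2 ratio of summed Fgf23 counts, with alternatives chosen after seeing the data, was 3.83 and lay between 3.47 and 4.52 when 1 library was left out. Without DMSO replicate 5, also chosen after seeing the data, Hs3st1 went from -0.63 to -0.61 (unadjusted p = 0.0363) and Hs3st3b1 from -0.93 to -0.60 (unadjusted p = 0.0620). Without division by exon length Fgfr2 ranked 4 in level in place of 6, Fgf10 5 and Fgf18 6. No member other than Fgf23 was under the filter on low counts, so the permutation test planned for such members gave no value, and under the stricter filter Fgfr4 and Klb were not tested. At these depths a gene with fewer than 3 counts in 1 library could not be told from absent in that library.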
